A study of Canis lupus familiaris with 4 samples.

Results

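The 41 genes described here are integrin chains and the proteins that join them to the cytoskeleton, out of 30951 rows in the deposited expression table. They were chosen by name: every row whose gene name is that of an integrin alpha chain (ITGA followed by a number, V, L, M, X, E or 2B) or of an integrin beta chain (ITGB followed by 1 digit), plus a set of talin, vinculin, kindlin, kinase, docking, tensin and caveola genes. The rows found hold 24 integrin chains and 17 focal adhesion or caveola genes. ITGAX and the PINCH adaptor LIMS1 were not analysed here under those symbols. The table covers 4 libraries of total RNA from mesenchymal stromal cells (MSCs) of canine adipose tissue, each from a separate primary cell line named for 1 dog. All cultures were untreated and grew for 48 h in multiwell plates, in DMEM with 10% fetal bovine serum, and strain, sex, age and passage are not in the labels used here. The labels therefore hold 1 group and no contrast of conditions, and the comparisons are those of a gene with its own library and of dog with dog.

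Integrins are pairs of 1 alpha and 1 beta chain that span the cell membrane and grip matrix proteins outside it. Inside, talin and kindlin bind the beta tail, vinculin and the ILK, PINCH and parvin complex tie the cluster to actin, and focal adhesion kinase and its docking proteins carry the signal. In adherent stromal cells these clusters mature into focal adhesions on stiff surfaces such as culture plastic. Caveolae are small membrane pits shaped by caveolins and cavins, which flatten when the membrane is stretched.

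A library's reads are those assigned to genes, and they numbered 22411268, 16246965, 15203607 and 7474011 in dogs 1 to 4. Normalized reads are reads divided by the size factor of the library, and a level is the deposited log2 value minus the library median, which is the value of the median gene among those detected. A gene counted as detected with reads in at least 2 of the 4 libraries, as 17200 genes did. Levels carry no correction for transcript length, so they place a gene relative to its library and compare a gene with itself between dogs, and no order between genes is read from them. All values given with ± are a mean and SD over n = 4 dogs. In bulk RNA, fewer cells of a type and less RNA per cell cannot be told apart.

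Most of these adhesion genes lay well above the median detected gene of the cultures, on a scale not corrected for transcript length. Of the 41 members, 38 were detected and 36 had reads in all 4 dogs. Of the 38, 23 passed the test above the library median by over 1 log2 unit, 6 passed it below and 9 passed in neither direction (limma, Benjamini-Hochberg adjusted over 17200 genes). Over all tested genes 33.3% were above, 35.8% below and 30.9% neither. By the same test 9 of 10 stromal markers were above, with NT5E below. Of the 14 leukocyte markers measured, 0 were above, 3 below, 2 neither and 9 not detected. The 2 that were neither, LCP1 and CSF1R, had levels of 1.43 ± 0.69 and 0.09 ± 0.78, and 7 of the 14 had 0 reads in every dog. None of 4 platelet and megakaryocyte markers was detected. Of the calls below, only that of ITGB6 held both when every gene with reads in at least 1 library set the median and with a distance of 2, while those of ITGA10, ITGA2B, ITGB4, ITGB7 and TNS3 were lost under each of these. The median level of the detected members was 3.31, against -0.02 over all detected genes. The focal adhesion and caveola genes were above in 16 of 17 cases, with TNS3 below. The integrin chains divided into 7 above, 5 below, 9 neither and 3 not detected. Together the members held 1.19%, 1.10%, 1.04% and 1.47% of the reads in dogs 1 to 4. The 95% Wilson intervals ran from 1.18% to 1.19%, 1.09% to 1.10%, 1.03% to 1.04% and 1.46% to 1.48%, and they cover counting error only.

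**Figure D1:**
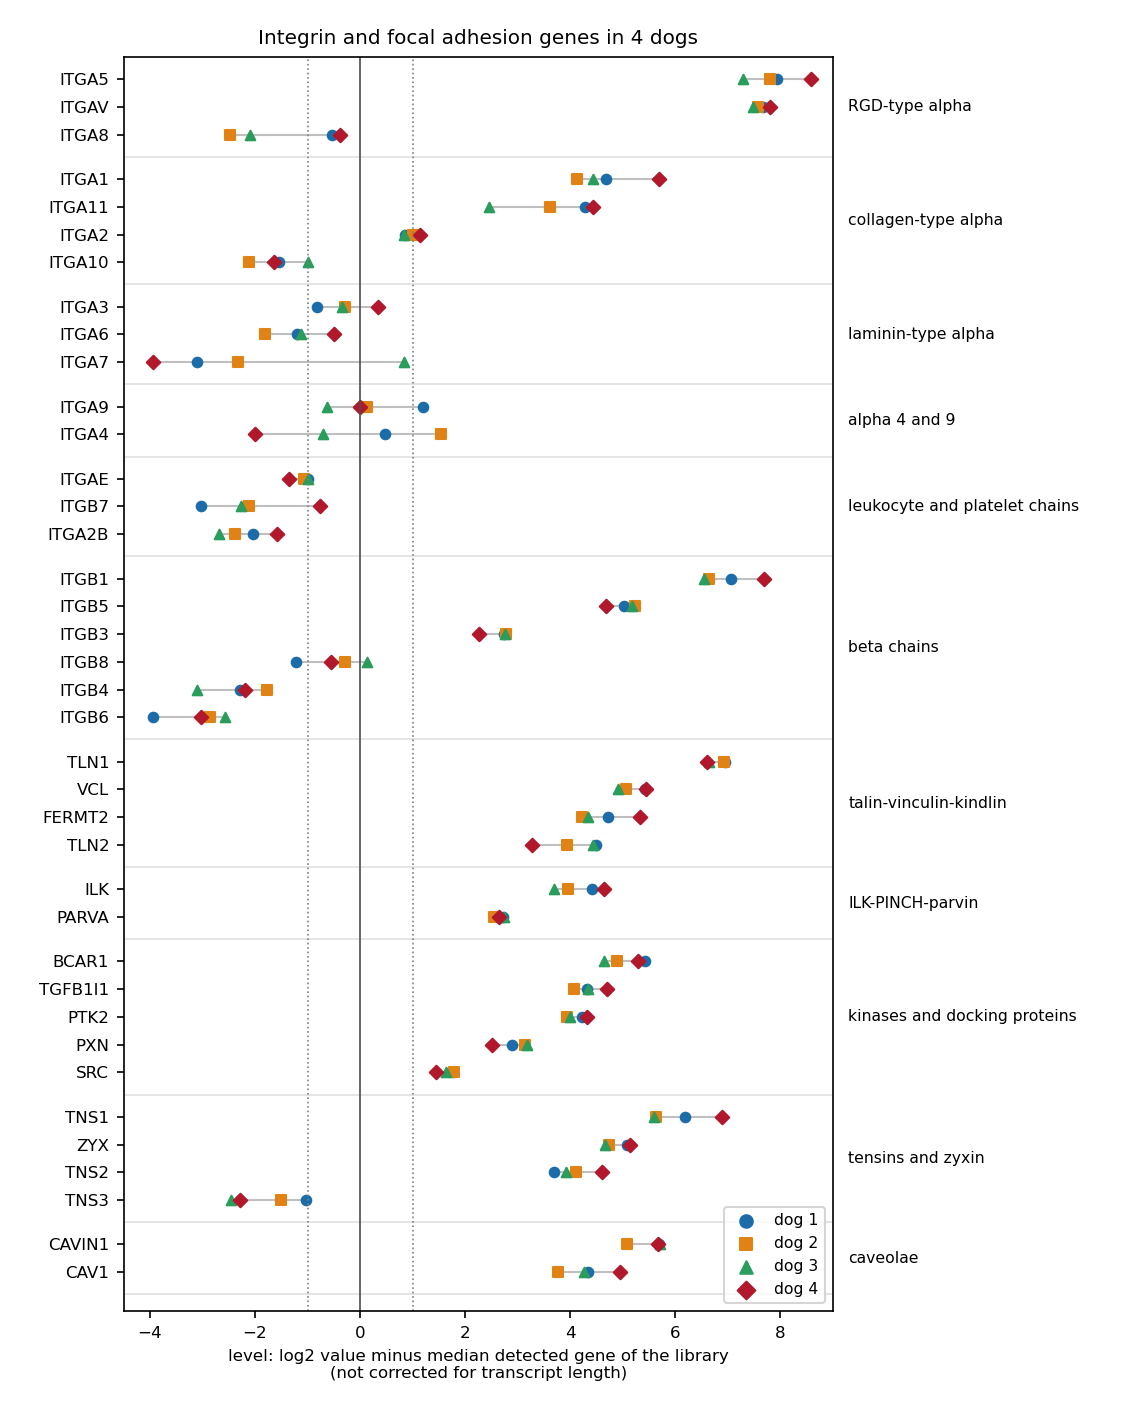
Level of each detected member in the 4 dogs, grouped by role, on a log2 scale relative to the library median (solid line at 0, dotted lines at the distance of 1 used in the test). Markers are single dogs and the grey bar joins the lowest to the highest: ITGA7 and ITGA4 span the widest ranges, while ITGAV, PARVA and ITGA2 sit within a narrow one.

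Among alpha chains that recognise the RGD motif of matrix proteins, ITGA5 and ITGAV were above the library median and ITGA8 was not. ITGA5, the alpha chain of the classical fibronectin receptor, had 39109, 36282, 25289 and 60796 normalized reads in dogs 1 to 4. Dog 4 was the highest and dog 3 the lowest, 2.40-fold apart, and the level was 7.91 ± 0.53 (limma, adjusted p = 5.27e-09). ITGAV, which pairs with several beta chains to bind vitronectin and latent TGF-beta, had 32563, 30694, 29028 and 35681 normalized reads. Its dogs lay within 1.23-fold of each other, at a level SD of 0.14. ITGA8, known as a receptor of nephronectin and typical of contractile mesenchyme, had 125, 13, 21 and 47 reads, or 89.8, 12.0, 20.05 and 102 normalized reads. Dogs 1 and 4 were high and dogs 2 and 3 low, with an 8.50-fold range, and its level of -1.37 ± 1.07 passed the test in neither direction (adjusted p = 0.23) but did so below the median when dog 4 was left out (-1.94), with a distance of 0.5, and when genes with reads in all 4 dogs (-2.19) or with at least 10 normalized reads on average (-2.34) set the median.

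The collagen-binding alpha chains split into 2 above, 1 neither and 1 below. ITGA1, which pairs with ITGB1 to bind collagen IV and fibrillar collagens, had 4076, 2795, 3492 and 8243 normalized reads in dogs 1 to 4. Dog 4 stood above the other 3 dogs, 2.95-fold over dog 2, and the level was 4.74 ± 0.68 (limma, adjusted p = 1.57e-07). ITGA11, the fibroblast receptor of fibrillar collagen, had 3079, 1958, 862 and 3416 normalized reads. Dog 3 was the low one here, 3.96-fold under dog 4, and the level of 3.70 ± 0.90 was still above (limma, adjusted p = 7.06e-06). ITGA2, the collagen chain known from platelets and epithelia, had 267, 304, 269 and 330 normalized reads. The 4 dogs lay within 1.23-fold of each other at a level of 0.96 ± 0.14, which did not pass the distance of 1 (adjusted p = 0.76) but passed a distance of 0.5, and passed above at 1.85 when every gene with reads in at least 1 library set the median. ITGA10, a chain best known from cartilage, had 50, 21, 65 and 15 reads and was below at -1.57 ± 0.46 (limma, adjusted p = 0.038).

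None of the laminin-binding alpha chains was above the library median. ITGA7, known as the laminin receptor of muscle, had 5, 16, 281 and 0 reads in dogs 1 to 4. In normalized reads this was 3.59, 14.8, 268 and 0, so dog 3 held nearly all of the signal. Dog 3 was at least 41.2-fold higher than dog 4, taking 3 reads as the limit that 0 reads allow in dog 4, or 0.401 CPM (reads per 1e6 assigned to genes). Its level was -2.13 ± 2.09, with 0.84 in dog 3, and it did not pass the test (adjusted p = 0.077). It passed below when dog 3 was left out (-3.30), and also with thinned reads, on a scale of log2(normalized reads + 1), with a distance of 0.5 and under the same changes of median as ITGA8. The other chains of this kind, ITGA3 and ITGA6, had 70.4, 112, 107 and 180 and 50.3, 27.7, 54.4 and 93.3 normalized reads. Dog 4 was the highest for both, and at -0.28 ± 0.47 and -1.16 ± 0.54 neither passed the test, though ITGA6 was below without dog 4 (-1.61) and under the same changes of distance and median as ITGA8.

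The chains ITGA4 and ITGA9, which share ligands such as VCAM1, moved apart between dogs. ITGA4 had 202, 452, 79.2 and 21.7 normalized reads in dogs 1 to 4. Dog 2 was 20.8-fold over dog 4, where 10 reads were counted. ITGA9 had 343, 156, 84.96 and 139 normalized reads, so its highest dog was dog 1 and its lowest dog 3. The levels of -0.17 ± 1.53 and 0.17 ± 0.76 were neither above nor below. In the dog RefSeq annotation ITGA4 overlaps CERKL, whose normalized reads of 53.9, 95.04, 31.5 and 0 had the same order of dogs as ITGA4, and reads of overlapping genes cannot be told apart here.

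None of the chains of leukocyte and platelet integrins was above the library median, and some had hardly any reads. ITGAM, ITGAL and ITGB2, whose products pair on white blood cells, had 12, 3 and 1 reads in dog 1 and 0 reads in dogs 2 to 4. Counts of 0 allow up to 0.185, 0.197 and 0.401 CPM in dogs 2 to 4. ITGB7, the beta partner of ITGA4 and ITGAE in gut-homing lymphocytes, had 6, 21, 17 and 34 reads and was below at -2.04 ± 0.94, with dog 4 the highest at 73.7 normalized reads. ITGA2B, the platelet fibrinogen receptor chain, had 29, 15, 9 and 16 reads and was below at -2.17 ± 0.48. ITGAE had 60.3, 58.1, 62.1 and 43.4 normalized reads and passed in neither direction, at -1.10 ± 0.17. It passed below with a distance of 0.5 and when genes with reads in all 4 dogs (-1.92) or with at least 10 normalized reads on average (-2.07) set the median. It overlaps the kinase gene HASPIN in RefSeq, which had 154, 118, 146 and 128 normalized reads. The summed normalized reads of the leukocyte markers were 658, 883, 515 and 555 in dogs 1 to 4, mostly from LCP1 and CSF1R, and their part in these values was not tested.

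Of the 6 beta chains other than those of leukocytes, ITGB1, ITGB5 and ITGB3 were above the library median. ITGB1, the common partner of most matrix-binding alpha chains, had 21240, 16118, 15017 and 32755 normalized reads in dogs 1 to 4. Dog 4 was 2.18-fold over dog 3, and dogs 2 and 3 were close together. ITGB5 and ITGB3 form vitronectin receptors with ITGAV and ran the other way. ITGB5 had 5176, 6089, 5829 and 4088 normalized reads and ITGB3 had 1036, 1093, 1066 and 746. Dog 4 was the lowest for both, and for ITGB3 its gap to the other dogs made up 0.896 of the whole range, beyond Dixon's 95% limit for 4 values. ITGB8, which binds latent TGF-beta with ITGAV, had 48.8, 112, 158 and 88.9 normalized reads and was neither at -0.48 ± 0.57. The epithelial chains ITGB4 and ITGB6 were below at -2.34 ± 0.55 and -3.10 ± 0.60, with 21, 31, 4 and 8 reads of ITGB4 and 0, 7, 11 and 2 reads of ITGB6.

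All 4 genes of the talin, vinculin and kindlin group were above the library median, but they did not follow the same dogs. TLN1, the talin that links the beta tail to actin in most cells, had 19661, 19657, 16230 and 15538 normalized reads in dogs 1 to 4. Its level SD was 0.18, and dogs 1 and 2 stood close together over dogs 3 and 4. TLN2, the second talin gene, had 3575, 2467, 3476 and 1509 normalized reads. Dog 4 was the lowest and dogs 1 and 3 the highest, 2.37-fold apart at most, with a level of 4.04 ± 0.57 (limma, adjusted p = 2.50e-07). FERMT2, the kindlin of adherent cells, had 4192, 3003, 3263 and 6352 normalized reads and VCL, which reinforces stretched talin, had 6847, 5362, 4815 and 6929. FERMT2 was 2.12-fold and VCL 1.44-fold apart between the highest and the lowest dog, with dog 4 the highest for both, though dog 1 came close to it for VCL.

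ILK, the scaffold of the complex with PINCH and parvin, was above at 4.18 ± 0.44, with 3388, 2483, 2072 and 3979 normalized reads in dogs 1 to 4. Its order of dogs was that of ITGA5 and ITGB1. Its partner PARVA had 1029, 924, 1060 and 974 normalized reads, the smallest SD of all detected members at 0.09 around a level of 2.67. In RefSeq, ILK overlaps TAF10 and RRP8, which had at most 128 and 448 normalized reads in any dog, and TLN1 overlaps CREB3, which had at most 1754. ITGA7 overlaps METTL7B, which had 0 in every dog. ITGA1 overlaps PELO and FERMT2 overlaps LOC100686500, and neither was found here under that symbol. Reads shared between these genes and the members cannot be told apart here.

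All 5 kinases and docking proteins were above the library median. PTK2, which encodes focal adhesion kinase, had 2942, 2450, 2573 and 3153 normalized reads, and SRC, its partner kinase, had 521, 539, 481 and 414. The dogs lay within 1.29-fold of each other for PTK2 and within 1.30-fold for SRC. SRC, at a level of 1.66 ± 0.16, lost its call with a distance of 2. It also lost it with the median over genes with reads in all 4 dogs (0.84). The same held with the median over genes with at least 10 normalized reads on average (0.69). BCAR1, the stretch-sensing docking protein p130Cas, had 6772, 4745, 4034 and 6196 normalized reads, with dogs 1 and 4 high. Paxillin (PXN), the docking platform of early adhesions, had 1154, 1395, 1435 and 885 normalized reads, while its paralog TGFB1I1, also called Hic-5 and induced by TGF-beta, had 3138, 2687, 3234 and 4120. Dog 4 was thus the lowest for PXN and the highest for TGFB1I1.

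Tensins and zyxin bind adhesions that are under load. TNS1, the tensin of fibrillar adhesions, had 11514, 8042, 7821 and 18997 normalized reads in dogs 1 to 4. Dog 4 was 2.43-fold over dog 3 at a level of 6.08 ± 0.61 (limma, adjusted p = 1.57e-08). TNS2 had 2031, 2780, 2421 and 3849 normalized reads and ZYX had 5362, 4310, 4063 and 5593. Dog 4 was the highest for both, with dog 1 the lowest for TNS2. TNS3 had 81, 41, 13 and 7 reads and was the only focal adhesion gene below, at -1.82 ± 0.67 (limma, adjusted p = 0.015). In normalized reads TNS3 stood at 58.2, 37.8, 12.4 and 15.2, with dogs 3 and 4 low.

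The caveola genes CAV1 and CAVIN1 were both above, at 4.33 ± 0.48 and 5.54 ± 0.30. CAV1, the main coat protein of caveolae, had 3192, 2166, 3102 and 4864 normalized reads, with dog 4 the highest and dog 2 the lowest. CAVIN1, the peripheral coat protein that caveolae need to form, had 8233, 5471, 8401 and 8083. Dogs 1, 3 and 4 lay together and dog 2 lay apart, its gap being 0.946 of the range. Across all 38 detected members 2 had 1 library apart in this way, ITGB3 and CAVIN1, and over all tested genes the share was 5.36%.

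The order of the dogs was shared by a good part of the abundant members. Among the 23 members above the library median, dog 4 was the highest for 14, and dog 4 was the highest for 33.3% of all 5723 genes above. Dog 3 was the lowest for 9 of the 23, against 29.7% of all genes above. For ILK, ITGA11, ITGA5, ITGAV, ITGB1, TNS1, VCL and ZYX, 8 of 23, the dogs stood in the order 4, 1, 2 and 3 from high to low, as for 10.0% of all genes above. The median deviation from a gene's own mean was 0.23 in dog 4, 0.10 in dog 1, -0.15 in dog 2 and -0.15 in dog 3 over these 23 members, and between -0.02 and 0.05 over all genes above. Against that, dog 4 was the lowest for TLN1, TLN2, SRC, PXN, ITGB3 and ITGB5, 6 of 23, against 34.8% of all genes above. The order was singled out after the values were seen. After quantile normalization dog 4 was the highest for 13 members, with dog 3 first for ITGAV, against 30.4% of all genes above. On a scale of library totals it was the highest for 14, against 24.7%. On these scales the full order of 4 dogs held for 5 and 6 members, against 7.71% and 5.91% of all genes above. ILK, ITGA11, VCL and ZYX kept it on both. ITGA5 and ITGB1 lost it after quantile normalization, TNS1 on library totals and ITGAV on both. TLN1 and TLN2 kept dog 4 lowest on every scale, but their highest dog was not the same on all of them.

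**Figure D2:**
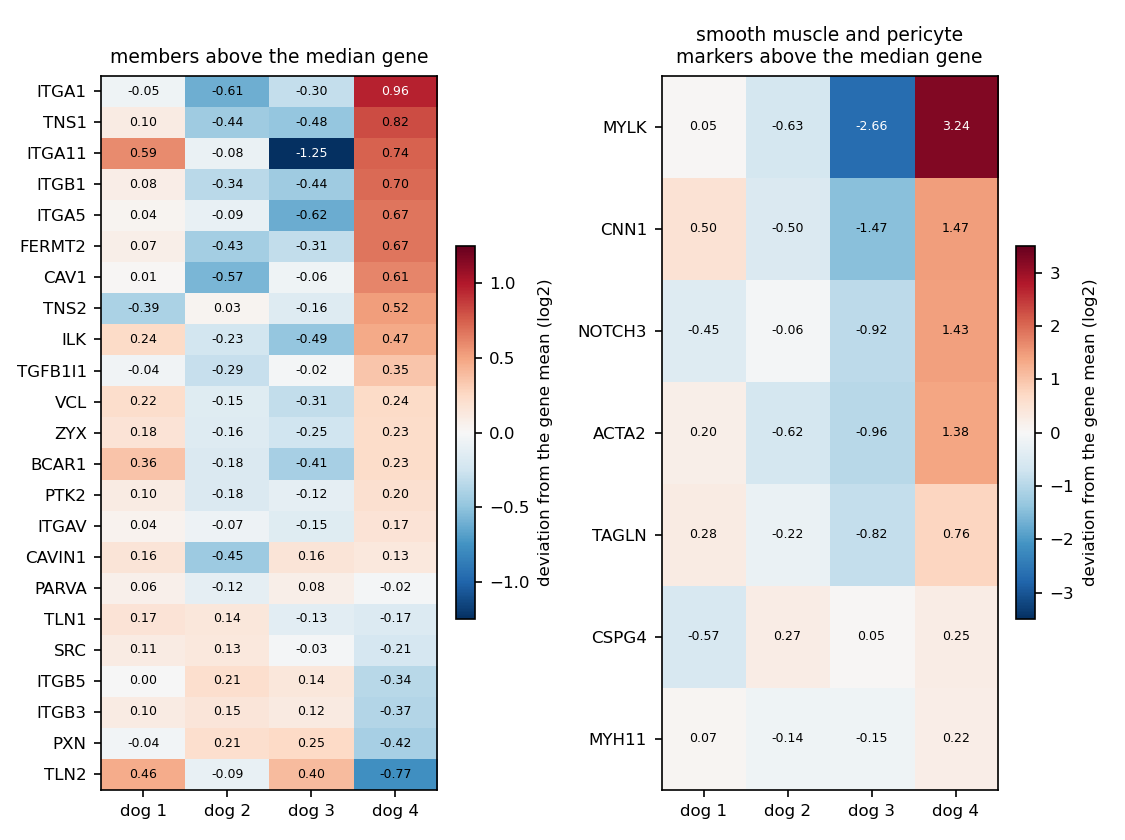
Deviation of each gene from its own mean over 4 dogs (log2), for the 23 members above the library median (left) and the 7 smooth muscle and pericyte markers above it (right), sorted by dog 4; red is higher and blue lower, and the panels have different colour scales. Dog 4 is red at the top of both panels and dog 3 is blue there, while TLN2, PXN, ITGB3 and ITGB5 at the bottom left are lowest in dog 4.

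Some markers of contractile cells had the same order of dogs as these members, and others did not. The smooth muscle and pericyte markers, 10 of which were measured, summed to 75065, 53328, 36812 and 171416 normalized reads in dogs 1 to 4. This is the order of dogs of 8 of the 23 members above, and of 10.0% of all genes above. Of these members, only ILK, ITGA11, VCL and ZYX kept that order both after quantile normalization and on library totals. Of the 10, 7 were above the library median, 1 below, 1 neither and 1 not detected. ACTA2, the smooth muscle actin, had 29593, 17014, 13387 and 66732 normalized reads, and the myosin kinase gene MYLK had 4194, 2658, 632 and 38320. CSPG4, a pericyte proteoglycan, had 2393, 4382, 3759 and 4246 normalized reads, lowest in dog 1. MYH11, the smooth muscle myosin, had 1181, 1035, 1031 and 1321, with its highest and lowest dog 1.28-fold apart. CNN1 and NOTCH3 were above at 3.51 ± 1.27 and 4.66 ± 1.02, with dog 4 the highest and dog 3 the lowest for both. RGS5 had 0 reads in all dogs and DES had 0, 0, 3 and 4. Dog 4 differed in other marker lists as well. The epithelial and mesothelial markers summed to 129, 104, 332 and 943 normalized reads in dogs 1 to 4, in dog 4 all from KRT18. The stromal markers summed to 1.59e+06, 1.44e+06, 1.42e+06 and 1.14e+06, lowest in dog 4, and COL1A1 and COL3A1 held most of each sum. The single stromal markers were split. COL1A1, COL3A1, PDGFRB, PDGFRA, CD44 and NT5E were lowest in dog 4, DCN, LUM and ENG were highest there, and THY1 was highest in dog 3. The part of contractile or other cells in the values of the members was not tested.

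Without dog 4 fewer of the abundant members, and fewer of all genes above, had dogs far apart, and no single member passed the test of variability. For 8 of the 23 members above the library median, the highest and the lowest dog were 1 log2 unit or more apart, against 13.9% of all genes above. These were ITGA1, ITGA5, ITGA11, ITGB1, TNS1, FERMT2, CAV1 and TLN2. After quantile normalization ITGA5, ITGB1, TNS1 and FERMT2 were less than 1 log2 unit apart, and on a scale of library totals ITGB1 and FERMT2 were. On the deposited values the count without dog 4 was 1 of 23, ITGA11, against 4.32% of all genes above. Without any 1 of the other dogs it was 6 to 8, for which the share of all genes is not given. The median SD was 0.30 over the 23 members and 0.24 over all genes above. Over all 38 detected members it was 0.48, against 0.36 over all detected genes. Without dog 4 that of the members was 0.31, and the value over all detected genes without dog 4 is not given. The variance of each gene was set against the trend of variance with level in limma. None of the 38 members passed after Benjamini-Hochberg adjustment, and neither did any of the 17200 genes (0%), with smallest adjusted p-values of 0.35 and 0.0796. Even MYLK, with its highest and lowest dog 60.6-fold apart, did not pass (F test, adjusted p = 0.099). With 4 values per gene the test therefore cannot show that the members were steady. At an unadjusted p under 0.05, 5 of 38 members passed, ITGA7, ITGA4, ITGA11, ITGA1 and TLN2, against 5.20% of all genes.

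**Figure D3:**
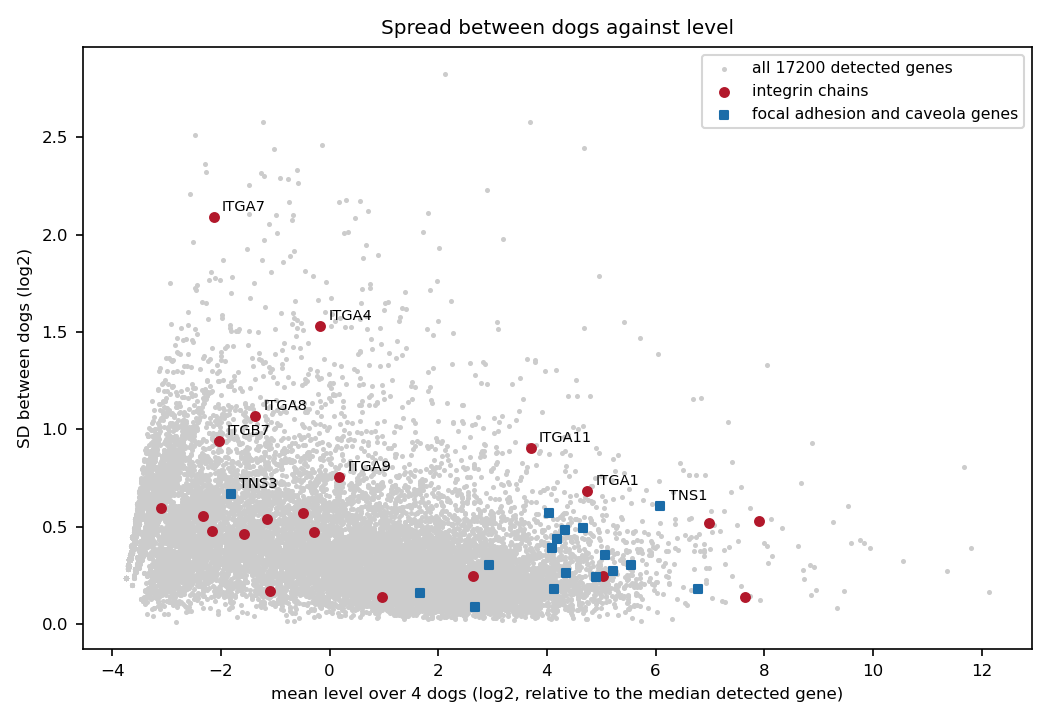
SD between dogs against mean level, both on the log2 scale, for all 17200 detected genes (grey), the integrin chains (red) and the focal adhesion and caveola genes (blue). Members with an SD above 0.6 are named: ITGA7 and ITGA4 reach 2.09 and 1.53 at low levels, and ITGA11, ITGA1 and TNS1 stand out among the abundant ones.

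Ratios of related members within a dog cancel the size of the library, and their change between dogs is free of transcript length. The log2 ratio of ITGB1 over ITGB5 was 2.04, 1.40, 1.37 and 3.00 in dogs 1 to 4, a 3.11-fold range. Dog 4 thus had the most ITGB1 for its ITGB5, and ITGAV over ITGB5 was likewise highest there at 3.13, against 2.65, 2.33 and 2.32 in dogs 1 to 3. ITGA5 over ITGAV was 0.26, 0.24, -0.20 and 0.77, and the talin ratio of TLN1 over TLN2 was 2.46, 2.99, 2.22 and 3.36, both highest in dog 4 and lowest in dog 3. The ratio of PXN over TGFB1I1 was -1.44, -0.95, -1.17 and -2.22, lowest in dog 4, with a 2.42-fold range. The collagen receptor ratio ITGA11 over ITGA1 was -0.40, -0.51, -2.02 and -1.27, low in dogs 3 and 4. TNS1 over TNS3 spanned 6.32-fold and ITGA4 over ITGA9 18.6-fold, both with few reads in at least 1 of the genes. FERMT2 over ILK moved by 1.32-fold only, and CAV1 over CAVIN1 was -0.73 in dog 4, against -1.37, -1.34 and -1.44 in dogs 1 to 3. The ratios were not tested, because a sign test on them would turn on transcript length.

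**Figure D4:**
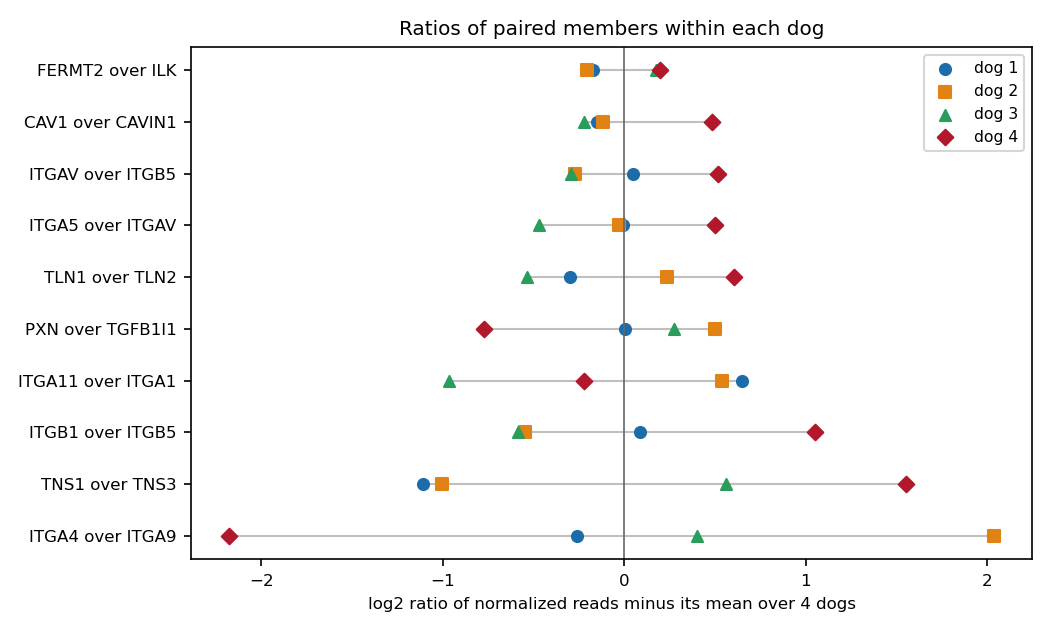
Log2 ratio of normalized reads of 10 pairs of members in each dog, minus its mean over the 4 dogs, sorted by spread. Dog 4 lies farthest right for ITGB1 over ITGB5 and for TLN1 over TLN2 and farthest left for PXN over TGFB1I1, and FERMT2 over ILK has the narrowest range.

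The other genes of the pathway were mostly above the library median as well, against 33.3% of all tested genes. Of 24 matrix ligands of integrins in the table, 20 were above, 3 below and 1 neither, with a median level of 5.46. Among those above were the fibrillar collagens COL3A1 (12.13 ± 0.16) and COL1A1 (11.80 ± 0.39), fibronectin (FN1, 9.76 ± 0.43) and the adhesive glycoprotein THBS1 (8.88 ± 0.93). FN1, the ligand of ITGA5 with ITGB1, had 179945, 92179, 138406 and 161371 normalized reads in dogs 1 to 4, with dog 2 low and dog 1 high. Osteopontin (SPP1, -3.65 ± 0.40) and vitronectin (VTN, -2.73 ± 0.88), ligands of the ITGAV receptors, were below, with at most 4 reads of SPP1 and 34 of VTN in any dog.

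Of 28 further scaffolds and actin linkers, 22 were above, 3 below and 3 neither, with a median level of 3.00. The share above over all tested genes was 33.3%. They include the actin cross-linkers FLNA (9.84 ± 0.41) and ACTN1 (6.72 ± 0.40) and the LIM protein CSRP1 (5.82 ± 0.69), all above. PARVG, the parvin of blood cells, and SORBS2 were below at -3.25 ± 0.82 and -3.51 ± 0.53, with at most 13 and 6 reads in any dog. LIMS2, the second PINCH gene, was above at 2.15 ± 0.87, with 565, 437, 539 and 1692 normalized reads and dog 4 high. PARVB, the second parvin of adherent cells, was above at 2.15 ± 0.38.

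Among 32 adhesion signalling genes, 24 were above, 1 below, 5 neither and 2 not detected, against 33.3% of all tested genes above. Those above included the SRC-family kinase FYN (5.46 ± 0.31), the collagen receptor kinase DDR2 (5.31 ± 0.04), RHOA (5.04 ± 0.21) and ROCK2 (4.82 ± 0.62). PTK2B, the paralog of focal adhesion kinase, was neither at 0.20 ± 0.29, and the GTPase activator ARHGAP26 was below at -2.20 ± 0.65. Of 23 talin, kindlin and integrin regulators, 18 were above, 2 below and 3 neither, those above including the endocytic adaptor DAB2 (6.07 ± 0.73), the tetraspanins CD151 (4.45 ± 0.52) and CD81 (3.91 ± 0.48) and KANK1 (4.42 ± 0.63). The kindlins FERMT1 of epithelia (-1.77 ± 0.83) and FERMT3 of blood cells (-2.57 ± 0.11) were below, with at most 51 and 14 reads in any dog. Of 8 other caveola genes 4 were above, 3 neither and 1 not detected, against the same 33.3% above. Those above were EHD2 (5.56 ± 0.21), CAV2 (3.68 ± 0.38), CAVIN3 (2.85 ± 0.13) and PACSIN2 (1.82 ± 0.29). ROR1 (0.56 ± 1.04) and CAVIN4 (-1.17 ± 0.91) were among those that were neither, and CAV3, the caveolin of muscle, was not detected. ROR1 had 281, 311, 367 and 61 normalized reads and CAVIN4 71.1, 72.0, 92.6 and 10.8, with dog 4 low for both.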

How the data were processed

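Total RNA of 4 libraries was sequenced, 1 per dog. Per the submitters' processing notes, the tools were FastQC 0.12.1, Trimmomatic 0.39, STAR 2.7.11a and DESeq2 and the build was CanFam3.1. Which program counted reads, with what strand setting and gene models, is not given in the sources used here. The deposited values are log2 values from a variance-stabilizing transformation by the authors, per the file headers. Inverting it gave whole reads for 100% of the values in each library within 0.01 reads, with size factors of 1.39, 1.08, 1.05 and 0.461 for dogs 1 to 4. Tests ran on the deposited log2 values.

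The level test used limma 3.58.1 in R 4.3.3. Each gene had 1 mean over the dogs, the prior variance followed a trend, and the distance tested was 1 log2 unit. P-values were adjusted by Benjamini-Hochberg over all detected genes with a threshold of 0.05. For variability, an F test set the variance of each gene over the prior variance at its level. Both were tested on simulated data. Each dog is 1 culture and 1 library, so the spread between dogs includes that between cultures. The members, the lists and the markers were chosen with earlier results of these data known. Every member is named. Values in each dog were given for up to 4 members per role, the most variable ones and those with few reads, and up to 4 highest and 2 lowest genes of other lists. LIMS2 and PARVB were added after their values were seen. The values of 1 gene that this rule names are not reported here. Tests, shares and ratios per coding length were planned and not made, since transcript lengths were not used here. Overlaps come from the RefSeq assembly UU_Cfam_GSD_1.0, matched by symbol for 41 of 41 members. Alternatives covered the reference genes, distance, prior, filters, scale, quantile normalization, thinning and leaving out each dog. All 4 value columns were used.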

Additional observations from a re-analysis of the deposited data

Results flagged for a closer look

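In ITGB3 the library of dog 4 lay low, with a gap to the nearest other dog of 0.896 of the range, at 746 normalized reads against 1036, 1093 and 1066 in dogs 1 to 3. In CAVIN1 the library of dog 2 lay low, with a gap of 0.946 of the range, at 5471 normalized reads against 8233, 8401 and 8083 in dogs 1, 3 and 4. The log2 ratio of CAV1 over CAVIN1 stood high in dog 4, with a gap of 0.857 of its range. Such gaps arise by chance in about 5% of groups of 4, 5.36% of all tested genes showed one, and 2 of 38 members did.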

How the results depend on the processing

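No paired analysis was possible because the labels hold 1 group. The number of members above the median detected gene lay between 22 and 24 under all alternatives run and was 23 without any 1 dog. The number below was 6, but 10 with the median taken over genes with reads in all 4 dogs or with a distance of 0.5, 9 of 37 with a filter at 10 normalized reads, 7 on log2(normalized reads + 1) or with thinned reads, 4 of 41 when every gene with reads was tested, and 1 with a distance of 2. Without 1 dog it ran from 6 to 8. The shares over all tested genes moved too, from 35.8% below and 33.3% above. With the median over genes with reads in all 4 dogs they were 43.5% below and 21.7% above. With a distance of 0.5 they were 40.6% and 39.7%, with a distance of 2 they were 24.5% and 19.1%, and with the filter at 10 normalized reads 27.7% and 25.5%. For log2(normalized reads + 1), thinned reads, every gene with reads and the runs without 1 dog the shares are not given. The counts in those settings therefore cannot be set against 35.8% or 33.3%. Taking the median over genes with reads in all 4 dogs lowered all levels by 0.82, a filter at 10 normalized reads lowered them by 0.97 and testing every gene with reads raised them by 0.89. The number of variable members was 0 under every alternative run. The median level of the members ran from 2.97 to 3.20 without 1 dog. Their median SD was 0.31 without dog 4 and ran up to 0.49 without 1 of the others. The share of reads held by the members was 1.52% ± 0.24 when the 10 most abundant genes were left out of the total, against 1.20% ± 0.19. No level changed sign in a called member. Dog 4 was the highest for 13 to 15 of the 23 members above under 7 alternatives chosen after seeing the data. The share of all genes above ran from 24.7% on library totals to 41.5% without dog 1, the setting that gave 15 members. At 7474011 reads dog 4 limits what can be said of members with few reads. Levels, shares and ratios per coding length were not run. The number of members with dogs 1 log2 unit or more apart, 8, ran from 1 without dog 4 to 8 without dog 1. It also depended on the scale. After quantile normalization ITGA5 (0.86), ITGB1 (0.64), TNS1 (0.96) and FERMT2 (0.99) fell under 1 log2 unit. On a scale of library totals ITGB1 (0.97) and FERMT2 (0.96) did. The share of all genes above was 13.9% on the deposited values and is not given for the other scales.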
